A study of Mus musculus with 6 samples.

Results

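The genes described here are 40 genes of ribosome biogenesis and RNA polymerase I, chosen by their symbols. They are subunits and initiation factors of RNA polymerase I, nucleolar chaperones, proteins of small nucleolar ribonucleoproteins (snoRNPs), and assembly factors of both ribosomal subunits. All 40 symbols were found among the 18182 genes listed in the files, and all 40 were among the 13353 genes abundant enough to be tested. The study injected wild type C57BL/6 mice under the skin with Lewis lung carcinoma cells carrying a red fluorescent protein (LLC-RFP), either by themselves (LLC alone, 3 libraries) or together with bone marrow-derived mesenchymal stem cells (LLC with BMSCs, 3 libraries). Lewis lung carcinoma is a transplantable line from a C57BL/6 mouse lung tumour. Fluorescent cells were sorted from the primary tumours and their RNA was sequenced, to compare the transcriptomes of tumour cells grown with and without BMSCs. Tumour cells were told from host cells and BMSCs by the RFP label. The sources used here do not say whether each library came from a separate mouse. The p-values therefore set the difference between groups only against the spread between these libraries, which may not be the spread between mice.

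RNA polymerase I transcribes a single long precursor RNA from the ribosomal DNA repeats in the nucleolus. Box C/D and box H/ACA snoRNPs methylate that precursor and convert uridines in it to pseudouridine, and a large set of factors folds and cuts it while the small and large subunits form around it. The pathway is busy in growing tumour cells, and MYC is a well known activator of many of its genes.

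The total estimated count was 33476347 to 46189113 fragments per library, and the 40 genes took 1.42% to 1.51% of it. Replicates 1 and 2 of LLC alone and replicates 2 and 3 of LLC with BMSCs resembled each other more than other pairs did, with a median chi-square per gene of 1.96 and 1.69 times its expectation under counting error against 5.04 to 14.2 times in the other pairs of one group. Krt8 was abundant, at 90.3 to 113 FPKM (fragments per kilobase of transcript, scaled to library size), but the other epithelial markers Krt18, Epcam, Cdh1 and Krt19 were at or under 0.69 FPKM in every library. The summed level of 10 BMSC and fibroblast markers was 270.4 to 326 CPM (counts scaled to a common library total) in LLC alone and 669 to 701 CPM in LLC with BMSCs. Of these, 7 of 7 tested markers were higher, and Thy1 and Postn were at 5 counts or fewer in each library. Col3a1 had the largest counts, at 36.8 to 43.6 FPKM in LLC alone and 99.0 to 101.7 FPKM with BMSCs. Col1a1 and Dcn were at or under 0.02 and 0.13 FPKM in LLC alone. With BMSCs they were at 1.85 to 2.24 and 6.14 to 6.56 FPKM. The summed level of 9 neutrophil markers was 0.472 to 0.792 CPM in LLC alone and 19.6 to 23.2 CPM in LLC with BMSCs (6 of 6 tested markers higher), that of 10 macrophage markers 9.51 to 11.6 and 14.1 to 14.4 CPM (5 higher, 1 lower), and that of 15 proliferation markers 4029 to 4197 and 4753 to 4865 CPM (6 higher, 5 lower). The 6 higher proliferation markers were Mki67, Top2a, Bub1, Aurkb, Plk1 and Ccna2, and the 5 lower were Mcm2, Mcm3, Mcm5, Mcm6 and Pcna. Their summed level thus hides changes in both directions. The 40 genes together stood at 14778 to 15191 CPM in LLC alone and at 14083 to 14476 CPM in LLC with BMSCs. The part of other cells and of proliferation in the results for the 40 genes was not tested, and in bulk RNA fewer cells that express a gene and less RNA per cell cannot be told apart.

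More of the 40 genes fell than rose in LLC with BMSCs, and by less than 2-fold in each case. By edgeR's quasi-likelihood test with Benjamini-Hochberg adjustment over all tested genes, 20 of 40 (50%) were lower, 8 (20%) were higher and 12 were not called at an adjusted p under 0.05. Among all tested genes 31.3% were lower and 31.5% were higher, 62.9% in either direction, against 70% of the 40. The median log2 fold change of the 40 genes was -0.10, and that of all tested genes was 0.01. Normalized counts of the 3 libraries of one group lay entirely above or below those of the other in 32 of the 40 genes (80%), against 71.3% of all tested genes; 20 of these 32 were lower and 12 were higher in LLC with BMSCs. Changes ran from -0.96 (Nop14) to 0.65 (Polr1e) on the log2 scale, and 8 called genes changed by at least 0.5, of which 7 were lower and 1 was higher. The share called lower was thus above that of all tested genes and the share called higher was below it. The 2 close pairs of replicates were also each summed, which leaves 2 libraries per group. In that fit 12 of the 40 (30%) were lower and 4 (10%) were higher, beside 23.9% and 24.3% of all genes tested. The excess of lower calls was thus much smaller there, while the shortfall of higher calls remained. Rrn3, Nolc1, Wdr75, Nat10, Nop16, Pes1 and Rrs1 lost their call in that fit alone. Counts by role or list below are to be read beside the shares of all tested genes in the main fit, 31.3% lower and 31.5% higher. The plot of fold changes by role places the genes within the steps of the pathway.

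**Figure D1:**
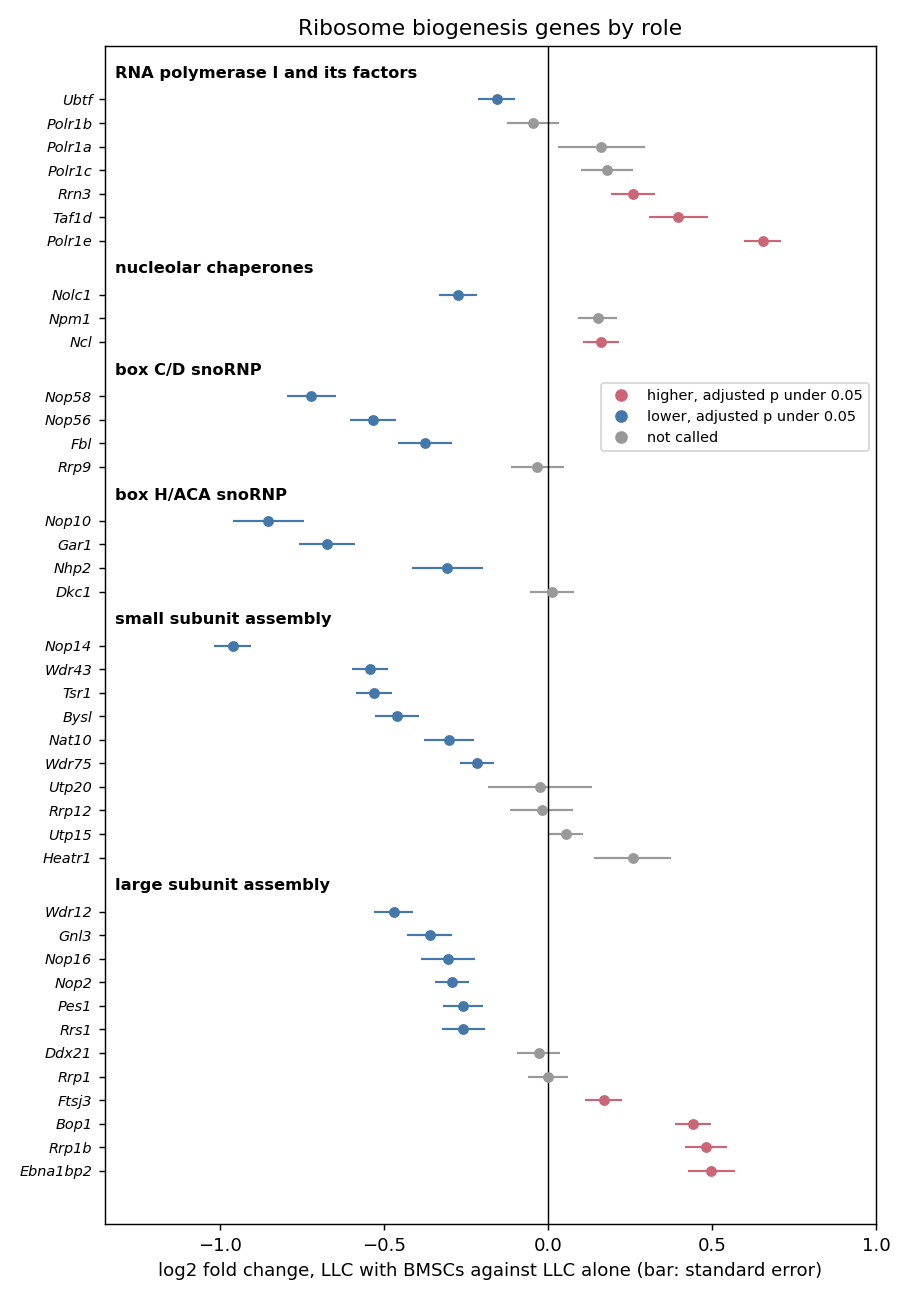
Log2 fold change of each of the 40 genes in LLC with BMSCs against LLC alone (horizontal axis), grouped by role, with bars for the standard error from 3 libraries per group and colours for the direction of the call. Genes of both snoRNP groups lie near or left of 0. The 7 plotted genes of RNA polymerase I and its factors have 3 higher and 1 lower.

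Of RNA polymerase I and its initiation factors, 3 of 7 genes were higher, 1 was lower and 3 were not called. Among all tested genes 31.5% were higher and 31.3% lower. The median log2 fold change of the 7 was 0.18. These 7 are only a part of the machinery. Another 14 subunits and factors of RNA polymerase I transcription had 1 higher and 7 lower, with a median of -0.27. Polr1e, a subunit of the polymerase also known as PAF53, was the least abundant of the 40 genes and rose the most. It measured 6.96, 7.25 and 7.44 FPKM without BMSCs and 11.1, 12.01 and 11.4 FPKM with BMSCs. The groups were far apart relative to their spread, and the log2 fold change was 0.65 (SE 0.06, edgeR adjusted p = 5.0e-05). Polr1e lies on chromosome 4 from 45018583 to 45036565 on the plus strand (GRCm38, GENCODE M21). Its promoter is shown because it belongs to the largest rise; GC boxes (GGGCGG, 2 copies) and 1 ETS core (ACTTCCGG) are in capitals, and the annotated start site follows the first 250 bases.
Polr1e promoter, chr4:45018359-45018658, plus strand, RefSeq GRCm38.p6: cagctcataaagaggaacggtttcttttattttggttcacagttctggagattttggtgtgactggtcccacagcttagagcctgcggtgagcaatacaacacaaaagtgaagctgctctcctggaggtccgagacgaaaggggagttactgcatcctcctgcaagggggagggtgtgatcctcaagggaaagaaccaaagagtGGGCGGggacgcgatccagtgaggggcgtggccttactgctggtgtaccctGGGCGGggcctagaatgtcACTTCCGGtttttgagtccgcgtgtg

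Rrn3, the factor that makes the polymerase competent to initiate, was at 32.3, 32.6 and 28.6 FPKM in the LLC alone libraries and 38.6, 38.5 and 36.3 FPKM in those with BMSCs, a rise of 0.26 on the log2 scale (SE 0.07, edgeR adjusted p = 0.012). Taf1d, a subunit of the selectivity factor SL1, measured 70.9, 73.1 and 83.0 FPKM in LLC alone, compared with 78.1, 87.8 and 93.6 FPKM in LLC with BMSCs. Its FPKM values overlapped between the groups but its normalized counts did not, and the log2 fold change of the counts was 0.40 (SE 0.09, edgeR adjusted p = 0.0057), a call lost in each of the 3 tests on FPKM. Ubtf, which binds the ribosomal DNA promoter, was the only gene of the 7 called lower, at 48.2 to 50.3 FPKM against 42.9 to 46.1 FPKM. Its log2 fold change of -0.16 (SE 0.06, edgeR adjusted p = 0.044) was the smallest that passed, and 9 of 18 other fits lost the call. The catalytic subunits were not called: Polr1a had a log2 fold change of 0.16 (SE 0.13, edgeR adjusted p = 0.31) and Polr1b of -0.05 (SE 0.08, edgeR adjusted p = 0.63), with intervals of 2 SE from -0.10 to 0.43 and from -0.21 to 0.11. For Polr1a, LLC alone replicate 3 was at 67.7 FPKM and the other 5 libraries between 94.95 and 114 FPKM, and without that replicate its change was 0.03. Polr1c, which RNA polymerase III shares, had a log2 fold change of 0.18 (edgeR adjusted p = 0.078).

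The 3 abundant nucleolar chaperones differed among themselves, with 1 higher, 1 lower and 1 not called. Npm1 (nucleophosmin) was the most abundant of the 40 genes, at 1454, 1428 and 1560.3 FPKM in LLC alone against 1598, 1673 and 1693 FPKM in LLC with BMSCs. Its 3 libraries with BMSCs were all above those without, but the log2 fold change of 0.15 (SE 0.06, edgeR adjusted p = 0.054) missed the threshold, which 6 of 18 other fits passed. Ncl (nucleolin) measured 393, 370.5 and 363 FPKM against 426, 414 and 440.2 FPKM, a log2 fold change of 0.16 (SE 0.06, edgeR adjusted p = 0.033). This rise was lost in 9 of 18 other fits, and the sign turned to -0.18 once each library's trend over transcript length was removed; the files list the RefSeq transcript of Ncl at 8257 bases. Nolc1 (Nopp140), a nucleolar protein that associates with snoRNPs, was at 135 to 144 FPKM in LLC alone and at 112 to 119 FPKM in LLC with BMSCs (log2 fold change -0.28, SE 0.06, edgeR adjusted p = 0.0040).

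Most snoRNP proteins were lower in LLC with BMSCs. Of the 4 box C/D proteins 3 were lower (median log2 fold change -0.45). Of the 4 box H/ACA proteins 3 were lower (median -0.49), beside 31.3% of all tested genes. In both classes 0 genes were higher by edgeR, also at an unadjusted p under 0.05, and 0 by DESeq2, but Rrp9 was called higher in 1 other fit, with length and GC trends removed (0.14, edgeR adjusted p = 0.0046). Nop58, a core scaffold of box C/D particles, measured 437, 426 and 476 FPKM without BMSCs and 255, 276 and 294.5 FPKM with BMSCs. Its paralogue and partner Nop56 was at 443, 416 and 478 FPKM against 291, 299.8 and 313 FPKM. The groups of both genes were separated by more than 100 FPKM, and the log2 fold changes were -0.72 for Nop58 (SE 0.07, edgeR adjusted p = 0.00011) and -0.53 for Nop56 (SE 0.07, edgeR adjusted p = 0.00035). Fbl (fibrillarin), the methyltransferase of the particle, was lower as well: 203, 191 and 234 FPKM in LLC alone against 163, 167 and 162 FPKM, a log2 fold change of -0.37 (SE 0.08, edgeR adjusted p = 0.0051). It stayed lower at -0.16 after removal of the length trend. Rrp9, which binds only the U3 snoRNA rather than box C/D snoRNAs in general, had overlapping levels of 118 to 139 and 122 to 133 FPKM and a log2 fold change of -0.03 (SE 0.08, edgeR adjusted p = 0.74).

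Among the box H/ACA proteins, which also belong to telomerase, Nop10 showed the largest fall. It measured 108, 102 and 134 FPKM in the LLC alone libraries and 61.4, 67.2 and 64.9 FPKM in those with BMSCs, a log2 fold change of -0.85 (SE 0.11, edgeR adjusted p = 0.00032). Gar1 was at 145, 142 and 166 FPKM against 88.9, 102 and 97.5 FPKM, a log2 fold change of -0.67 (SE 0.08, edgeR adjusted p = 0.00031). Nhp2 was at 176, 179.8 and 231 FPKM against 156, 166 and 159.5 FPKM, and its groups came close to each other except for LLC alone replicate 3. Its log2 fold change of -0.31 (SE 0.11, edgeR adjusted p = 0.037) became -0.16 without that replicate and -0.06, no longer called, after removal of the length trend. Its call was lost in 9 of 18 other fits, among them the 3 limma fits on FPKM and those without each library of LLC with BMSCs. Nop10 and Gar1 remained lower under the same treatment, at -0.55 and -0.48. Dkc1 (dyskerin), the pseudouridine synthase around which the other 3 assemble, did not move detectably. It measured 102, 102 and 106 FPKM in LLC alone against 96.7, 107 and 113 FPKM with BMSCs, a log2 fold change of 0.01 with an interval of 2 SE from -0.12 to 0.15. The plot of snoRNP levels shows Dkc1 with overlapping groups beside its partners with separated ones.

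**Figure D2:**
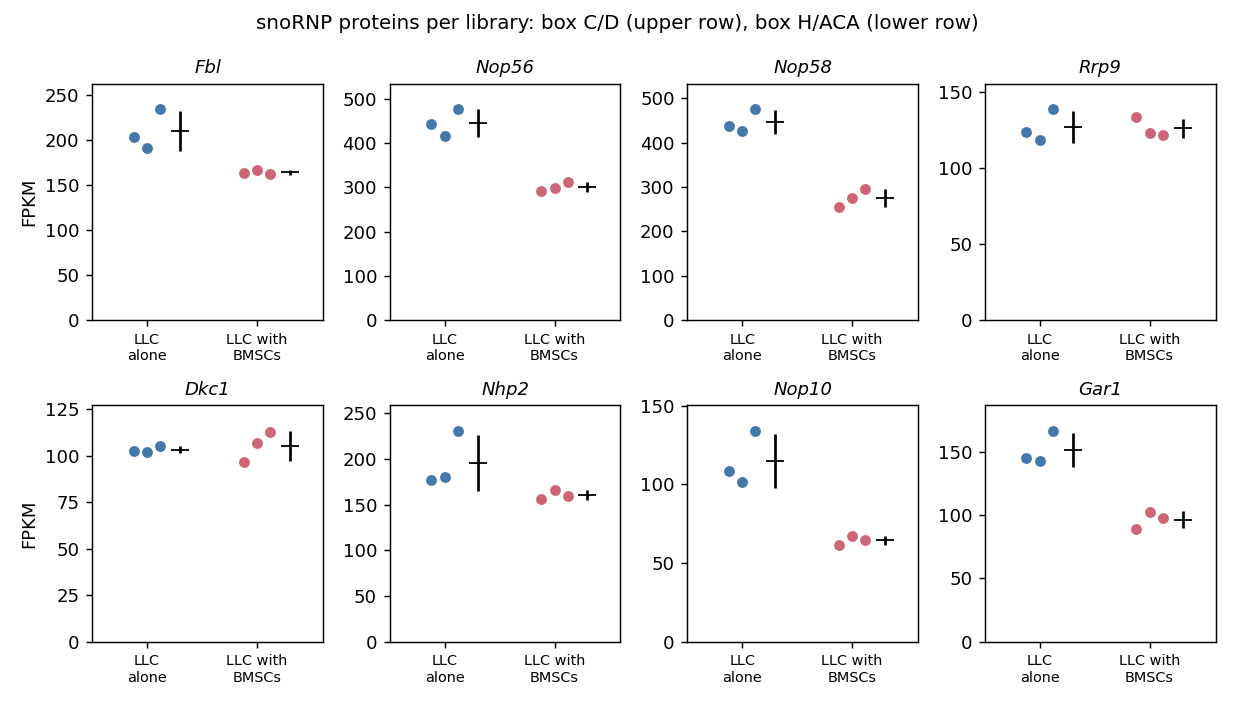
FPKM of the 8 snoRNP proteins in each library, with the mean and SD of 3 libraries per group beside the points, all vertical axes from 0. Nop56, Nop58, Nop10 and Gar1 have clearly separated groups, while Rrp9 and Dkc1 overlap.

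Of the assembly factors of the small subunit, 6 of 10 were lower and 4 were not called, with a median log2 fold change of -0.26. In this class 0 were higher by edgeR, also at an unadjusted p under 0.05, and 0 by DESeq2. Among all tested genes 31.3% were lower and 31.5% higher. Nop14, a component of the small subunit processome, showed the largest fall of the 40 genes. It measured 138, 141 and 132 FPKM in LLC alone, compared with 69.0, 71.2 and 74.0 FPKM in LLC with BMSCs, so that its normalized counts fell by 48.6% (log2 fold change -0.96, SE 0.06, edgeR adjusted p = 7.1e-06). It kept a value of -0.98 without LLC alone replicate 3. Nop14 lies on chromosome 5 from 34638536 to 34660148 on the minus strand (GRCm38, GENCODE M21). Its promoter is shown as that of the largest fall; the capitals mark 1 GC box, and none of CACGTG, ACTTCCGG or TATAAA was found in this window on either strand.
Nop14 promoter, chr5:34660099-34660398, minus strand, RefSeq GRCm38.p6: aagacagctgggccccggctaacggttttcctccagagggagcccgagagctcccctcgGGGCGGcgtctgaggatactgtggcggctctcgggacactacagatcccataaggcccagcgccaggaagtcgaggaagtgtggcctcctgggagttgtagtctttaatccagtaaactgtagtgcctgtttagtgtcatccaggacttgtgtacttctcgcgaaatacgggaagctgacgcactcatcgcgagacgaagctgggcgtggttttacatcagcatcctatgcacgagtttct

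Wdr43, a subunit of the UTP-A complex that binds the nascent precursor, was at 137, 138.5 and 129.95 FPKM in LLC alone against 93.7, 92.7 and 96.1 FPKM in LLC with BMSCs (log2 fold change -0.54, SE 0.05, edgeR adjusted p = 9.5e-05). Tsr1, a GTPase-like factor of late small subunit maturation, was at 85.3, 84.8 and 80.7 FPKM against 56.7, 60.3 and 59.2 FPKM (log2 fold change -0.53, SE 0.05, edgeR adjusted p = 0.00011). Both genes showed a narrow spread within each group. Bysl (bystin), Nat10, which acetylates 18S rRNA, and Wdr75, another UTP-A subunit, were lower as well, with log2 fold changes of -0.46, -0.30 and -0.22. The other UTP-A subunits Utp15 and Heatr1 were not called, at 0.05 (edgeR adjusted p = 0.40) and 0.26 (edgeR adjusted p = 0.087). Heatr1 was at 37.8, 39.0 and 28.2 FPKM without BMSCs and 44.2, 41.8 and 41.4 FPKM with BMSCs, and without LLC alone replicate 3 its log2 fold change was 0.13 and passed the threshold. Utp20, a very large scaffold protein, was at 43.8, 43.8 and 28.6 FPKM against 42.1, 36.1 and 37.6 FPKM. It had the widest standard error of the 40 genes (log2 fold change -0.02, SE 0.16), and was called lower, at -0.20, without LLC alone replicate 3. Rrp12, an export factor, stood at -0.02 (edgeR adjusted p = 0.88).

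Of the large subunit factors, 6 of 12 were lower, 4 were higher and 2 were not called (median log2 fold change -0.14). The share called higher was thus near the 31.5% of all tested genes, of which 31.3% were lower. The PeBoW complex, in which Pes1, Bop1 and Wdr12 act together on the precursors of 5.8S and 28S rRNA, held changes in both directions. Wdr12 measured 51.4, 52.9 and 53.1 FPKM in the LLC alone libraries and 36.2, 39.8 and 39.3 FPKM in those with BMSCs (log2 fold change -0.47, SE 0.06, edgeR adjusted p = 0.00030). Bop1 measured 39.2, 39.9 and 40.2 FPKM in LLC alone, compared with 56.4, 54.5 and 53.5 FPKM in LLC with BMSCs (log2 fold change 0.44, SE 0.05, edgeR adjusted p = 0.00028). Pes1 was at 111 to 113 FPKM in LLC alone and at 91.7 to 101 FPKM in LLC with BMSCs (log2 fold change -0.26, SE 0.06, edgeR adjusted p = 0.0068). In LLC alone Wdr12 was thus above Bop1 per length in every library, and in LLC with BMSCs it was below it in every library. Exons of Bop1 overlap those of Mroh1 and its counts were not whole in any of the 6 libraries, which means that some of its reads were shared out by estimation.

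Ebna1bp2, a nucleolar scaffold of early large subunit assembly, showed the largest rise of the class, from 49.7, 48.7 and 55.5 FPKM to 71.6, 72.1 and 77.1 FPKM (log2 fold change 0.50, SE 0.07, edgeR adjusted p = 0.00057). Of the paralogues Rrp1b and Rrp1, only Rrp1b was called. Rrp1b rose from 25.0, 25.0 and 22.2 FPKM to 33.9, 33.8 and 33.9 FPKM (log2 fold change 0.48, SE 0.06, edgeR adjusted p = 0.00043), whereas Rrp1 was at 95.1 to 106 and 99.6 to 102 FPKM, with an interval of 2 SE from -0.12 to 0.12 around a log2 fold change near 0. Exons of Rrp1b overlap those of Hsf2bp, and its counts were also not whole in all 6 libraries. Ftsj3, a methyltransferase, was called higher at 0.17 (edgeR adjusted p = 0.034), a call that 8 of 18 other fits lost. Gnl3 (nucleostemin), Nop16, Nop2 (the 28S methyltransferase NSUN1) and Rrs1 were lower with log2 fold changes from -0.36 to -0.26, and the RNA helicase Ddx21 was not called at -0.03 (edgeR adjusted p = 0.72).

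Transcripts of 1 gene could differ in direction. Of the 40 genes, 28 had a single transcript of at least 1 FPKM and 12 had more; among these, Ebna1bp2, Nop56, Npm1, Polr1a and Taf1d had transcripts whose groups were separated in opposite directions. These 5 genes were singled out after their values were seen, and the transcript values carry no test. The RefSeq transcript of Nop56, NM_024193, was at 425, 396 and 459 FPKM in LLC alone against 249, 250.4 and 260.4 FPKM in LLC with BMSCs. A transcript that the authors' pipeline had assembled, longer by 592 bases, was at 18.6, 19.8 and 18.5 FPKM against 41.6, 49.5 and 52.5 FPKM. Its share of the gene was thus 4.27% ± 0.45 (SD, n = 3) in LLC alone and 15.9% ± 1.4 (SD, n = 3) in LLC with BMSCs. For Npm1, NM_008722 was at 1035, 1029 and 1125 FPKM without BMSCs and 1231, 1384 and 1395 FPKM with BMSCs, and NM_001252261 was at 419, 399 and 435 FPKM against 366, 289 and 298 FPKM. The gene-level value of Npm1, which was not called, thus summed a transcript that was higher and another that was lower. In Taf1d, NM_027261 was at 11.2, 10.3 and 12.4 FPKM in the LLC alone libraries and 21.3, 18.5 and 20.3 FPKM in those with BMSCs, and an assembled transcript of 4379 bases was at 2.97, 3.42 and 4.08 against 10.2, 10.7 and 11.7 FPKM, while the most abundant assembled one was at 38.4 to 46.6 FPKM against 30.5 to 38.3 FPKM. An assembled transcript of Polr1a was at 8.28 to 9.02 FPKM in LLC alone and at 3.14 to 3.48 FPKM in LLC with BMSCs. How reads are divided among overlapping transcripts is an estimate of the authors' pipeline and cannot be checked from these files.

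**Figure D3:**
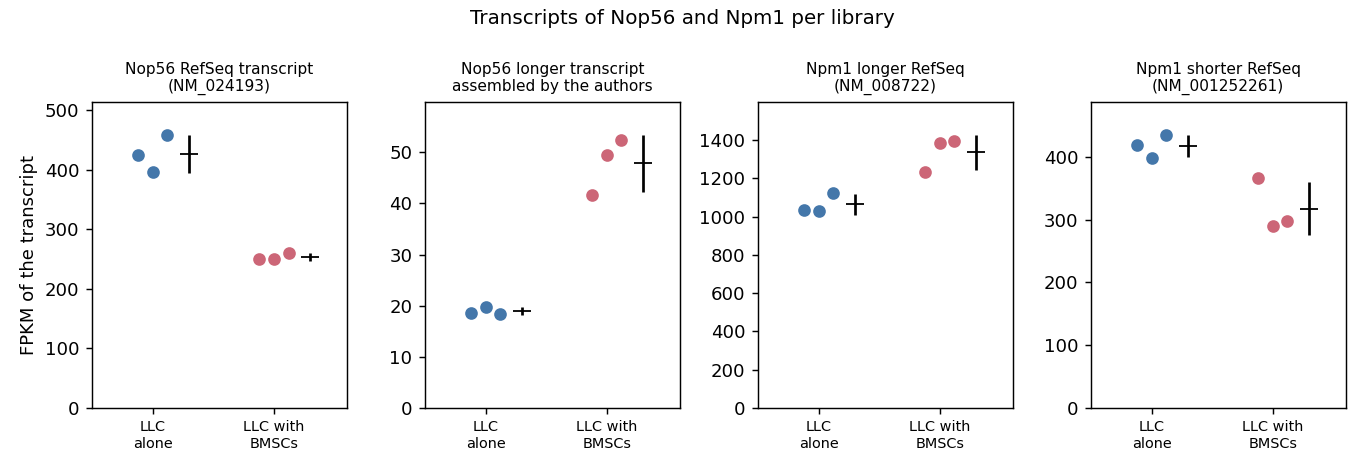
FPKM of 2 transcripts of Nop56 and 2 of Npm1 in each library, with the mean and SD of 3 libraries per group, all vertical axes from 0 and each on its own scale. In both genes 1 transcript is higher and the other lower in LLC with BMSCs, with no overlap between the groups.

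Several of these genes carry snoRNA genes within their bounds, a feature that played no part in choosing them. In GENCODE M21 8 of the 40 contain annotated snoRNA genes: Taf1d (8 snoRNA genes), Nop56 (5), Nop58 (4), Ncl, Wdr43 and Gnl3 (3 each), Tsr1 (2) and Dkc1 (1). Of these hosts 2 were higher, 5 lower and 1 not called, with a median log2 fold change of -0.44. Of the other 32 genes 6 were higher and 15 lower, with a median of -0.04. Among all tested genes 31.5% were higher and 31.3% lower. Enrichment with oligo-dT leaves the snoRNAs themselves outside this measurement. Exons of 13 of the 40 genes overlap those of another protein-coding gene (3 higher, 7 lower). For 9 genes, namely Taf1d, Ncl, Fbl, Nop56, Bysl, Nat10, Bop1, Rrp1b and Gnl3, the counts were fractional in all 6 libraries (4 higher, 5 lower), so 4 of the 8 genes called higher rest on counts that were partly divided by estimation.

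Transcript length moved with the deviations of LLC alone replicate 3. Over the 10 shortest of the 40 genes (738 to 1935 bases) this library deviated from the 6-library mean by a median of 0.28 in log2 CPM, and over the 10 longest (4071 to 8831 bases) by -0.16. The corresponding medians were 0.03 and 0.08 for replicate 1 and 0.04 and 0.05 for replicate 2 of LLC alone. Libraries of LLC with BMSCs moved with length in the opposite direction to LLC alone replicate 3. Their medians were -0.18 and 0.09 for replicate 1, -0.12 and -0.0040 for replicate 2, and -0.10 and 0.0036 for replicate 3. Of the 10 longest genes 2 were called higher and 2 lower, with a median log2 fold change of 0.02, and the medians of the 3 shorter sets of 10 were -0.31, -0.24 and -0.27. Without LLC alone replicate 3, 11 of the 40 genes were called higher and 21 lower, and the median was -0.16. Of all genes tested in that fit 35.0% were higher and 33.5% lower. With each library's length trend removed, 9 of the 40 were higher and 24 lower, and the median was -0.20. The share of all tested genes called lower was then 38.0% in place of 31.3%, and the share called higher 31.9%. In the latter fit Utp20 (-0.34), Ddx21 (-0.23), Polr1b (-0.20), Rrp12 (-0.19) and Utp15 (-0.11) became called lower, Npm1 (0.32) and Polr1c (0.37) became called higher, and Ncl and Nhp2 lost their calls. The cause of this length trend was not tested.

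**Figure D4:**
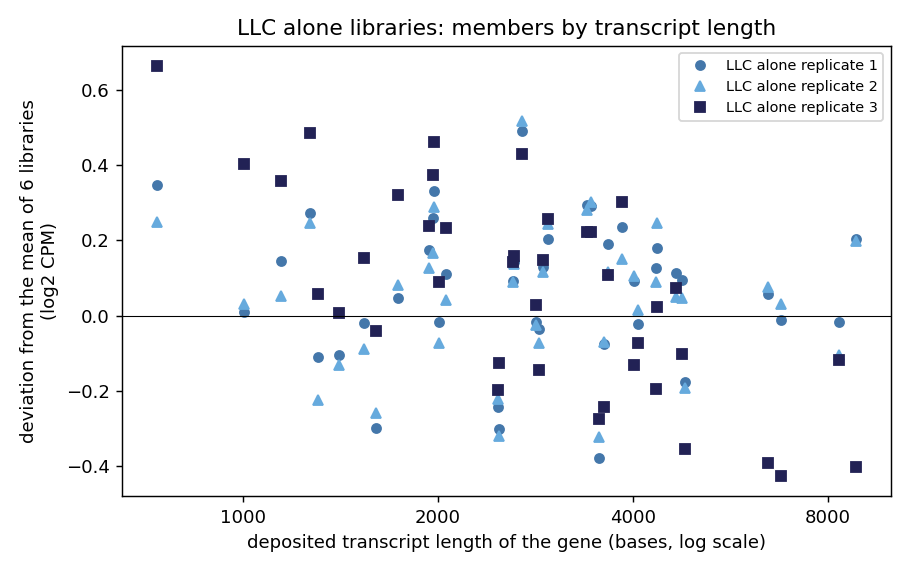
Deviation of each LLC alone library from the mean of all 6 libraries (log2 CPM, vertical axis) against the transcript length of each of the 40 genes (log axis). Replicate 3 lies above the other 2 replicates among most short genes and below them among most long ones.

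Of the rest of the pathway, 160 further ribosome biogenesis genes, 28 (17.5%) were higher and 61 (38.1%) lower, with a median log2 fold change of -0.15. Among all tested genes 31.5% were higher and 31.3% lower. By class, the other subunits and factors of RNA polymerase I transcription had 1 higher and 7 lower of 14. A class of RNase MRP, RNase P, exosome and further RNA processing genes had 4 higher and 13 lower of 24. Skiv2l2 and Xrn2, which are not subunits of these complexes, were among those called higher. Rpp38, a protein of RNase MRP and RNase P, was at 23.4, 21.2 and 27.8 FPKM in LLC alone, compared with 7.60, 8.27 and 8.18 FPKM in LLC with BMSCs, 3.06-fold lower (edgeR adjusted p = 1.5e-05). Rpp21, a protein of RNase P, was 2.19-fold lower (edgeR adjusted p = 0.0012) and Zfp622, a factor bound to large subunit precursors, was 2.76-fold lower (edgeR adjusted p = 7.7e-06). Of 11 regulators of rRNA synthesis 6 were higher and 1, Myc, was lower. Those higher were Mtor, Sirt7, Cdkn2a, Rb1, Kdm2a and Baz2a. The list mixes genes that activate and genes that restrain rRNA synthesis, so these counts give no direction for it. Myc measured 677, 686 and 687 FPKM in LLC alone against 321, 284 and 288 FPKM in LLC with BMSCs, a log2 fold change of -1.22 (SE 0.07, edgeR adjusted p = 4.8e-06). Myc therefore fell by more than any of the 40 genes, of which 20 were lower and 8 higher in the same libraries. Whether any of these changes depended on Myc was not tested. Cdkn2a, of whose products p19Arf restrains rRNA synthesis, was listed at 0 counts in all 3 libraries of LLC alone and at 39, 31 and 35 counts in LLC with BMSCs. It was at least 10.7-fold higher against a floor of 3 counts per library, which covers counting error only. Counts per gene do not tell its products apart. The level of Cdkn2a with BMSCs was 0.83 to 1.03 FPKM. The neutrophil marker Mmp8 and the macrophage marker Adgre1 were also at 0 counts in LLC alone. With BMSCs they were at 0.88 to 1.04 and 0.42 to 0.56 FPKM, while the macrophage marker Cd68 was lower. Which cells the Cdkn2a counts came from was not tested.

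Genes of 3 other translation lists were more often lower than higher as well. Of 81 tested cytosolic ribosomal protein genes 54 were lower and 0 higher by edgeR, with 0 higher at an unadjusted p under 0.05 and 0 by DESeq2 (median log2 fold change -0.40), although near-identical pseudogenes make these counts uncertain. Of 77 mitochondrial ribosomal protein genes 43 were lower and 2 higher (median -0.26), and of 20 aminoacyl-tRNA synthetase genes 12 were lower and 3 higher (median -0.25). For all tested genes the shares were 31.3% lower and 31.5% higher. The difference between these lists and the 40 genes was not tested.

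**Figure D5:**
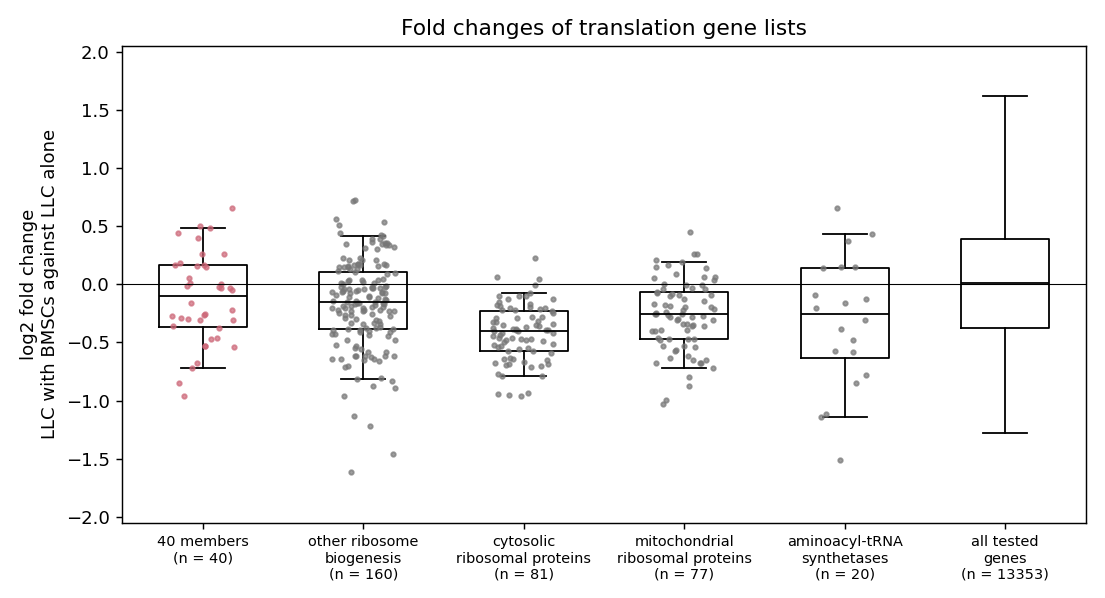
Log2 fold changes of the 40 genes, the 160 other ribosome biogenesis genes, 3 lists of other translation genes and all tested genes (boxes: quartiles and median; whiskers: 5th to 95th percentile; points: single genes, with Cdkn2a outside the axis). The medians are -0.10 for the 40 genes, -0.40 for cytosolic ribosomal proteins and 0.01 for all tested genes.

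Promoter sequences were available for 35 of the 40 genes, as windows of 250 bases before and 50 after the annotated start in RefSeq (GRCm38.p6), and were searched on both strands. The E-box CACGTG, the letters that MYC and its partner MAX bind, occurred in 6 of the 35 (17.1%), against 8.09% of the promoters of 27025 genes. Of these 6 genes, Wdr43, Tsr1, Nop2 and Pes1 were lower, Rrn3 was higher and Utp20 was not called. The ETS core ACTTCCGG was found in 8 (22.9%, against 4.31%), of which 3 were lower and 3 higher. The GC box GGGCGG was found in 26 (74.3%, against 38.2%) and TATAAA in 2 (5.71%, against 15.7%). The 27025 genes were all those with a promoter window, more than the 13353 tested here. They therefore include genes not tested in these cells, whereas the 40 were all tested. The shares among tested genes alone were not measured. Neither the E-box nor the ETS core was held by genes of a single direction, and a match of letters is a description and not a bound site. The stretches around the 6 E-boxes are shown, chosen after the values were seen, because Myc fell in these libraries; capitals mark CACGTG, and each is written along the strand of its gene.
Nop2, chr6:125131811-125131840, plus strand: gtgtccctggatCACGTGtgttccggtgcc
Rrn3, chr16:13780472-13780501, plus strand: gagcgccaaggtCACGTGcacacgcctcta
Pes1, chr11:3963965-3963994, plus strand: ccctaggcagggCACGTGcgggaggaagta
Wdr43, chr17:71616220-71616249, plus strand: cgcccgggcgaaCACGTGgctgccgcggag
Tsr1, chr11:74898092-74898121, plus strand: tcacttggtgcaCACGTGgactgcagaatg
Utp20, chr10:88826765-88826789, minus strand: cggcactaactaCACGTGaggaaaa
The E-box began at -60 of the annotated start in Nop2 and at -215 in Rrn3, and at 2, 17, 24 and 37 bases after it in Pes1, Wdr43, Tsr1 and Utp20. The 4 genes called lower and the 1 called higher therefore shared the same 6 letters, in different flanking sequence.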

How the data were processed

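RNA of sorted LLC cells was measured in 6 libraries, which the sample labels divide into 3 per group. According to the study's methods, mRNA was enriched with oligo-dT and paired-end 100 bp reads were made on a BGISEQ-500, while the labels name Illumina protocols. The submitters' processing notes name HISAT, StringTie, Cufflinks, GATK and the build mm8, with no role or version. The authors deposited estimated counts (expected counts) per gene, which divide reads that match several genes, and FPKM values per gene and per transcript, which divide by transcript length and library total. A table of FPKM values for the whole series was not used. The files hold no coordinates, so positions come from GENCODE M21 and promoters from RefSeq (GRCm38).

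After rounding to whole numbers, the counts went into edgeR 4.0.16 in R 4.3.3 (TMM factors, default filter on low counts, quasi-likelihood test, Benjamini-Hochberg adjustment over the 13353 genes tested, threshold 0.05). Each standard error was obtained from the log2 fold change and the root of its F statistic, and intervals span 2 standard errors to each side. With 3 libraries against 3, an exact permutation test gives no two-sided p below 0.1. The fits were tested on simulated data. The members and lists were chosen with earlier results of these data known. Any of the 40 genes could be named, with values per library for the 3 largest changes in each role and for the most and least abundant; of the other pathway genes, Myc and the genes called with a change of at least 1 on the log2 scale were named, at most 5 per direction, and promoters were shown for the largest rise and fall. Genes described beyond this rule were chosen after their values were seen. Alternatives were DESeq2 1.42.0, limma 3.58.1 on log2(FPKM + 1) and log2(FPKM + 0.1), other normalizations, filters and thresholds, a replicate block, close pairs of replicates summed, each library left out, and length trends removed. Removal of length and GC trends together was added after seeing the data.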

Additional observations from a re-analysis of the deposited data

How the results depend on the processing

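Across 18 other fits, 16 of the 28 called genes kept their call (12 lower; 4 higher, namely Polr1e, Bop1, Rrp1b and Ebna1bp2), 3 of the 12 others were called in none, and the median over all genes shifted by at most 0.047. Leaving out each library gave 6 to 11 of the 40 genes higher and 18 to 21 lower. Of all genes tested in those fits 26.8% to 35.0% were higher and 26.5% to 33.5% lower. The median of the 40 was -0.16 to -0.074, the former being the value without LLC alone replicate 3. With close pairs summed, 4 of the 40 were higher and 12 lower, beside 24.3% and 23.9% of all genes tested in that fit. In it 16 of the 160 other genes were higher, and fewer libraries remained. The median of the 40 was -0.20 with the length trend removed and -0.22 with length and GC trends removed, the latter fit chosen after seeing the data, and the cause was not tested. With a change of at least 1 on the log2 scale required as well, 0 of the 40 were higher and 0 lower, as no gene of the 40 changed by that much, with 1 higher and 4 lower of the 160 and 1155 higher and 957 lower of all genes. At an adjusted p under 0.001 these counts were 4 and 9, 8 and 27, and 1917 and 1835.

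The replicate numbers did not pair the libraries, since same-numbered libraries deviated with correlations of 0.076, -0.106 and 0.057. With the replicate number as a block, 7 of the 40 were higher and 19 lower, beside 31.2% and 30.4% of all tested genes.

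Log2 fold changes that turned sign were those of Ncl (-0.18 and -0.21), Polr1a (-0.10 and -0.087), Heatr1 (-0.014 and -0.0094), Utp15 (-0.11 and -0.13), Rrp9 (0.11 and 0.14) and Dkc1 (-0.043 and -0.076) once length or length and GC trends were removed. With close pairs summed, Polr1b was 0.0088, Dkc1 -0.026, Rrp12 0.052, Utp20 0.10 and Rrp1 -0.030. Upper-quartile factors gave -0.018 for Dkc1 and -0.030 for Rrp1, and library size alone 0.0014 for Rrp12. In limma, Rrp12 was 0.0067 and 0.0062 and Utp20 0.020 and 0.019. Over single libraries left out, Rrp9 ran from -0.082 to 0.043, Dkc1 from -0.034 to 0.067, Ddx21 from -0.081 to 0.011, Rrp12 from -0.11 to 0.040, Utp20 from -0.20 to 0.072 and Rrp1 from -0.036 to 0.050. Apart from Ncl, these genes were not called in the first place, and the causes were not tested. Depth was not the main limit: Polr1e, the least abundant gene, still had a mean of 1088 normalized counts in LLC alone, while the common coefficient of variation between libraries was 9.92%.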
